A study of Mus musculus with 9 samples.

Results

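The nuclear genes described here encode parts of complexes II, III, IV and V of the mitochondrial respiratory chain, together with cytochrome c. They were measured in mouse muscle precursor cells that were followed through differentiation. They were found by gene symbol alone: subunits and dedicated assembly factors of succinate dehydrogenase, the cytochrome bc1 complex, cytochrome c oxidase and ATP synthase, leaving out Cox4i1, Cox4i2 and the Cox6a, Cox7a and Cox8 genes. This gave 50 genes of the 19938 genes that have a probe set of their own on the array. Complex II contributed 8 genes, complex III 9, cytochrome c 1, complex IV 15 and complex V 17. All 50 lie on nuclear chromosomes, so the mitochondrially encoded subunits of these complexes are not covered. A filter on low values was passed by 49 of them, and the exception was Cox7b2.

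Complex II oxidises succinate in the Krebs cycle and passes the electrons to ubiquinone, complex III passes them on to cytochrome c, and complex IV hands them to oxygen. Complexes III and IV pump protons across the inner mitochondrial membrane, and complex V, the ATP synthase, lets them flow back through a rotating ring of c subunits to make ATP. Contracting muscle draws much of its ATP from this chain, and mitochondrial content is known to increase when myoblasts fuse into myotubes.

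The study compared cycling myoblasts at 0 days with myotubes after 2 days and after 5 days, with 3 arrays at each time point. All cultures were primary cells of the Balb/c strain with a wild-type genotype, taken from skeletal muscle. The sample titles place the myotubes in a differentiating medium, whereas the growth protocol lists the same serum and FGF medium for every sample, so the medium of the myotubes rests on the titles. Total RNA of whole cultures was hybridised to Affymetrix arrays. The labels do not state whether the 3 replicates of a group are separate cultures or animals. The p-values therefore measure no more than the spread from array to array, and this spread may be technical.

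The values are log2 expression values made by RMA, a method that corrects background, equalises the arrays of a set and summarises the probes of each probe set. RMA was run separately for each time point, so an effect of the processing set and an effect of time cannot be told apart. Array medians were 4.33 to 4.35 for cycling myoblasts, 4.26 for day 2 and 3.98 to 4.00 for day 5. Every change is therefore given as deposited and on a common scale, on which all 9 arrays were quantile-normalized together. As deposited, the median change of all tested genes was -0.01 at day 2 and -0.37 at day 5, and on the common scale 0.09 and 0.17. A gene is said to have risen or fallen only where limma gave an adjusted p under 0.05 in the same direction on both scales. Values were identical on all 3 arrays, within 1e-06, for 12 of the 50 genes among cycling arrays, for 28 among day-2 arrays and for 17 among day-5 arrays. Standard errors are small for that reason, and counts by size of change are given beside the calls. An exact permutation test of 3 arrays against 3 cannot give a p below 0.10.

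The labels matched the markers of the cells. All 8 markers of differentiated muscle, among them Ckm and Casq1, rose at least 2-fold at day 2, and 5 of 6 markers of cycling myoblasts fell. The muscle intermediate filament gene Des, listed with the myoblasts, rose. Of 16 tested markers of fibroblasts, adipocytes, macrophages, endothelium and nerve, S100b rose and Tubb3 fell at least 2-fold at day 2, both named after their values were seen, and none changed by 2-fold on both scales at day 5. Dcn, Lum, Adipoq, Fabp4 and Adgre1 lay below the filter. In whole cultures, fewer cells of a type and less RNA per cell cannot be told apart.

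At day 2 the respiratory genes rose almost as a block. Of the 49 tested, 45 rose and 2 fell, whereas 42.8% of all tested genes rose and 37.4% fell. A rise of at least 1.5-fold on both scales was found for 32 of the 49, or 65.3%, against a background of 13.3%. A rise of at least 2-fold was found for 8 of the 49, or 16.3%, against 6.04%. Their median change was 0.69 on the deposited values and 0.87 on the common scale, which is 0.70 and 0.78 above the median of all genes. On every day-2 array 45 of the 49 genes lay above all 3 cycling arrays on both scales, as did 44.2% of all tested genes.

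**Figure D1:**
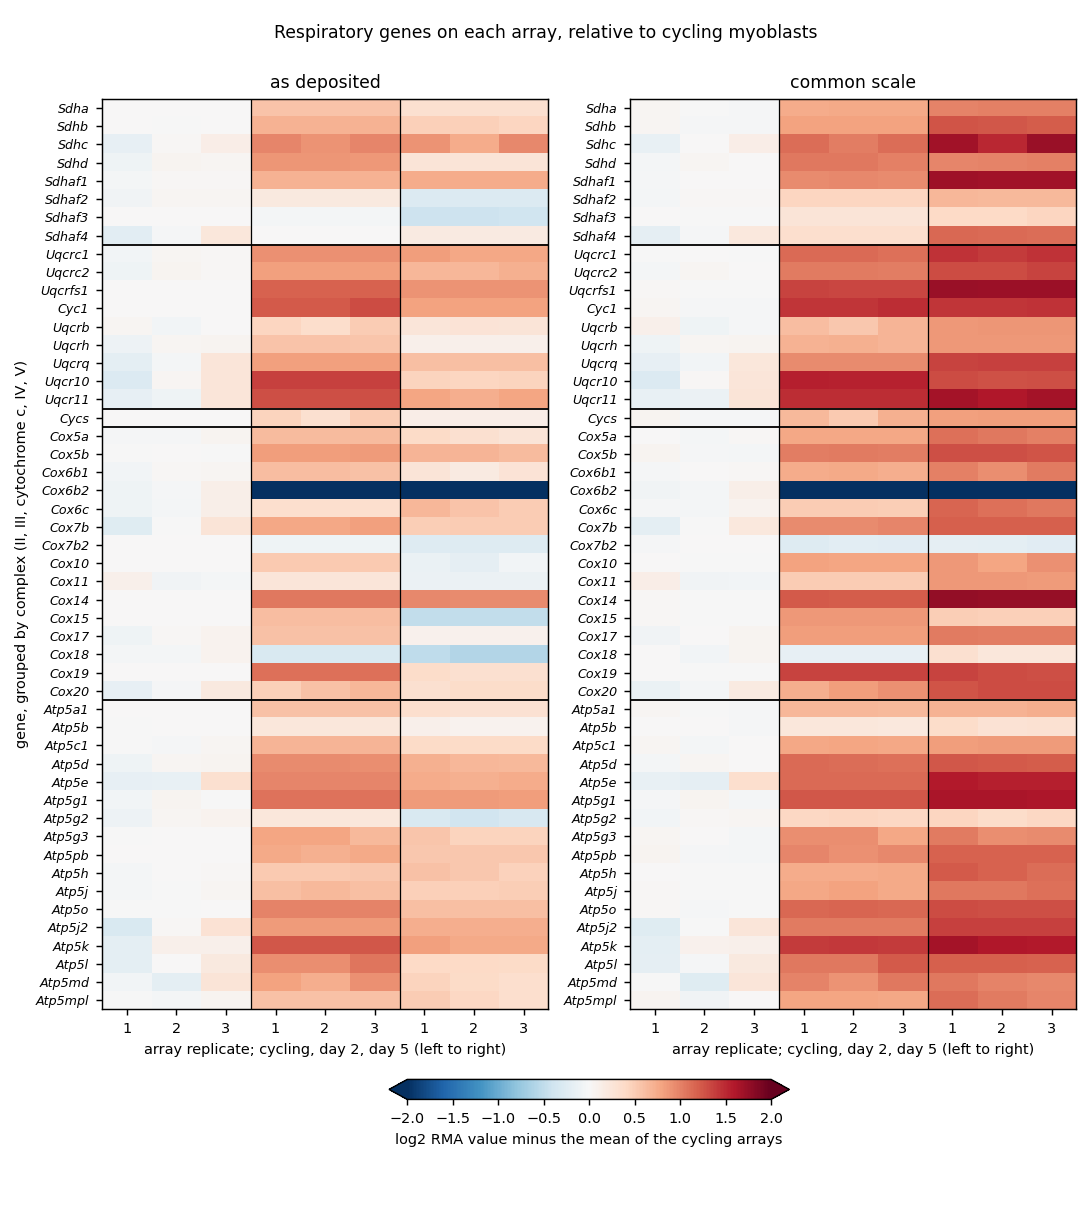
Heat map of the 50 genes on each of the 9 arrays, as deposited on the left and on the common scale on the right. Colour gives the log2 RMA value minus the mean of the 3 cycling arrays, rows are grouped by complex with black lines between them, and columns run from cycling myoblasts through day 2 to day 5. Red at day 2 fills nearly every row, Cox6b2 is dark blue at both later time points, and day 5 is paler than day 2 on the left and darker on the right.

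The members that rose 2-fold or more were Uqcr10, Uqcr11, Cyc1 and Uqcrfs1 of complex III, the complex IV assembly factors Cox14 and Cox19, and Atp5g1 and Atp5k of complex V. The largest of these was Uqcr10, with a log2 change of 1.37 ± 0.118 as deposited and 1.54 ± 0.113 on the common scale (limma SE, n = 3 arrays each). By complex, the median change at day 2 was 0.63 on the deposited values and 0.78 on the common scale in complex II, and 0.91 and 1.12 in complex III. In complex IV it was 0.60 and 0.81, and in complex V 0.75 and 0.95. The order of these medians is a description, and differences between complexes were not tested.

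At day 5 fewer of the genes stood above cycling myoblasts on both scales. Of the 49 tested, 39 rose and 1 fell, whereas 29.7% of all tested genes rose and 38.1% fell. A rise of at least 1.5-fold was found for 16 of them, or 32.7%, against a background of 9.74%. At 2-fold there was no member above cycling myoblasts on both scales, against a background of 4.44%, and Cox6b2 alone was below, against 12.3%. It was also the 1 gene to fall by 1.5-fold or more, against 20.0%. The median change of the members was 0.42 on the deposited values and 1.13 on the common scale, which is 0.79 and 0.96 above the median of all genes. The deposited values set the 2-fold count of rises, since the largest member change on them was 0.95. Of all tested genes 736 rose 2-fold on both scales and 736 as deposited, against 1960 on the common scale. On the common scale the members' median of 1.13 was itself above 2-fold. On all day-5 arrays 40 of the 49 genes lay above all 3 cycling arrays on both scales, as did 30.2% of all tested genes. The comparisons of day 2 and day 5 use the same cycling arrays.

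The scale decided the sign at day 5 for 7 of the 49 genes, which limma called lower as deposited and higher on the common scale. They were Sdhaf2, Sdhaf3, Cox10, Cox11, Cox15, Cox18 and Atp5g2, of which Atp5g2 is the sole structural subunit. Across all genes 3748 of 16582 were called in opposite directions at day 5, and 1167 at day 2. At day 2 Sdhaf3 was the 1 such member.

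**Figure D2:**
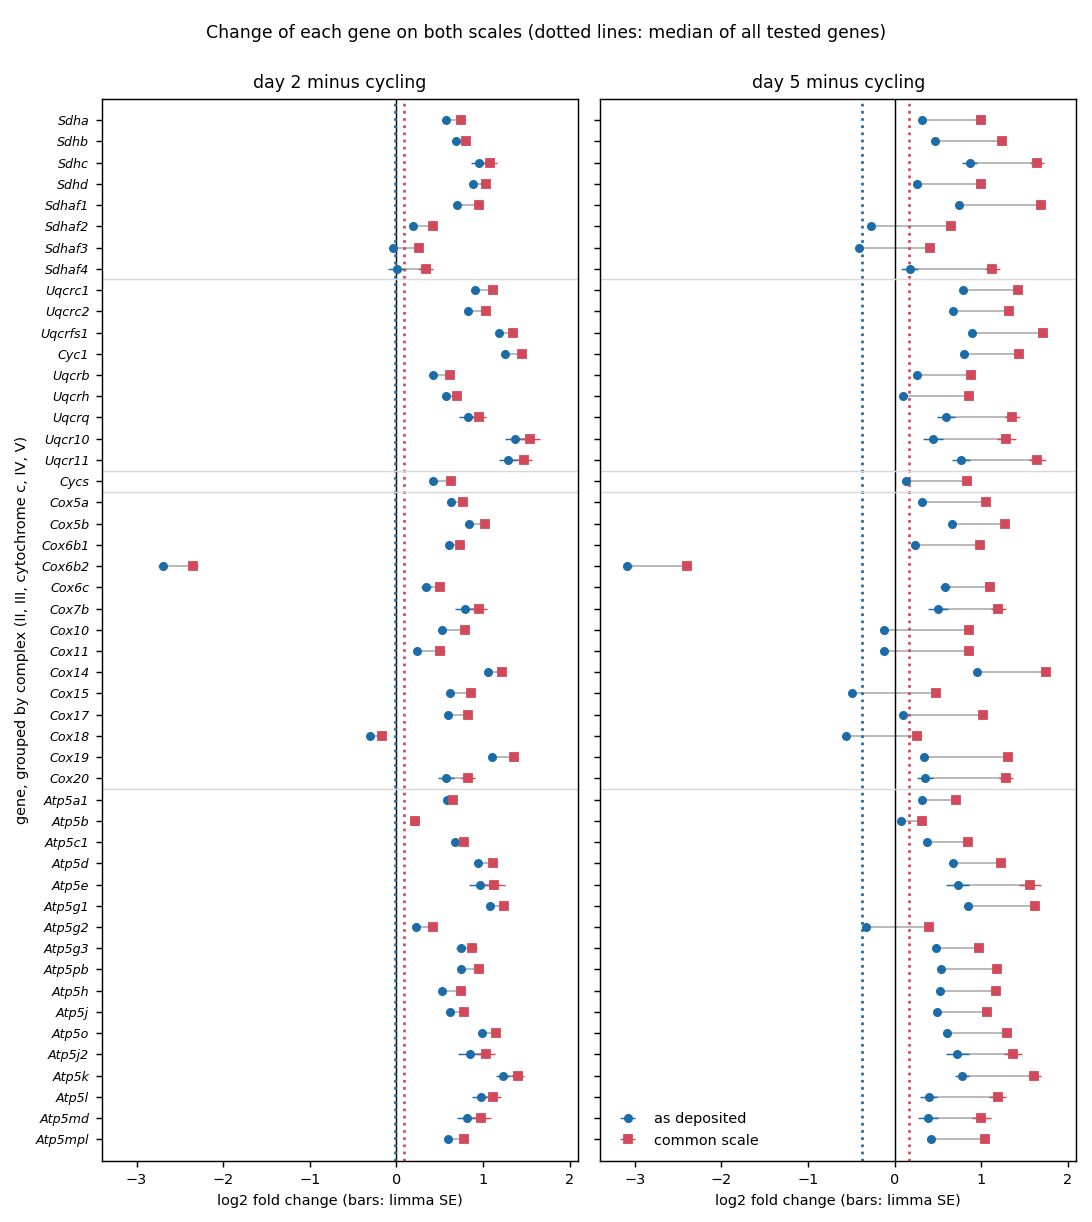
Log2 fold change of each of the 49 tested genes at day 2 (left) and day 5 (right) relative to cycling myoblasts, with circles as deposited, squares on the common scale and limma standard errors as bars. Dotted lines mark the median of all tested genes, at -0.01 and 0.09 at day 2 and at -0.37 and 0.17 at day 5. The scales lie close together at day 2 and apart at day 5, and each scale's change is to be read against its own dotted line. Of the 49 genes, 46 at day 2 and 45 at day 5 lie to the right of the matching line on both scales.

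Between day 5 and day 2 the 2 scales gave no shared direction for most of the genes. As deposited, day 5 was higher for 2 and lower for 40 of the 49, where 16.2% of all genes were higher and 77.8% lower. On the common scale it was higher for 37 and lower for 2, where 49.9% and 40.6% of all genes were. On both scales 2 rose and 2 fell, against 16.2% and 40.6% of all genes, 17 were called on a single scale, and 28 were called in opposite directions. The median difference was -0.27 on the deposited values and 0.24 on the common scale, against -0.40 and 0.06 for all genes. Sdhaf1 rose by 0.05 as deposited and 0.74 on the common scale, and Cox6c by 0.24 and 0.60. The deposited call of Sdhaf1 was lost when any 1 of the 6 myotube arrays was left out (limma adjusted p of 0.0538 to 0.054). Cox15 fell by 1.12 and 0.39, and Cox19 fell by 0.77 and 0.04.

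**Figure D3:**
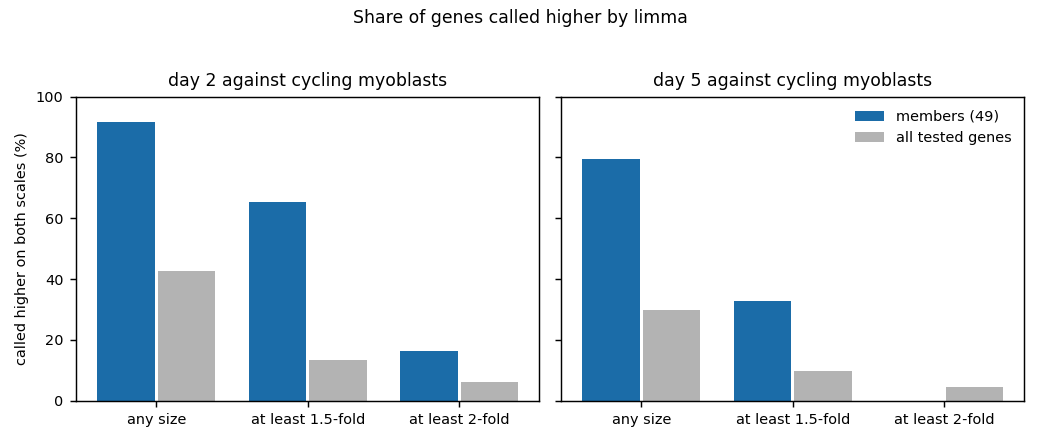
Bars give the share of genes, in percent, that limma called higher on both scales at day 2 (left) and day 5 (right) relative to cycling myoblasts, for any size, at least 1.5-fold and at least 2-fold. The 49 respiratory genes are in blue and all 16582 tested genes in grey. The blue bars reach 91.8%, 65.3% and 16.3% at day 2, and 79.6%, 32.7% and 0 at day 5. The deposited values set the 2-fold bar at day 5, where the members' median log2 change on the common scale was 1.13.

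Rank among the genes of an array is the order that quantile normalization keeps. The percentiles below therefore restate the common scale and are no separate check of it. By the deposited means, the median member stood at the 93.41 percentile of the tested genes before differentiation, at 96.75 after 2 days and at 97.64 after 5 days. Of the 49 genes, 46 had a higher percentile at day 2 than in cycling myoblasts, 48 had a higher one at day 5 than in cycling myoblasts, and 41 had a higher one at day 5 than at day 2. The share of all tested genes whose percentile rose was not counted, so these counts have no background beside them. Near the top of the range a counted rise can be tiny, as for Atp5b, at 99.95 in cycling myoblasts and 99.96 at day 5.

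In complex II all 4 subunits rose at both times, and the assembly factors were mixed. Among all tested genes 42.8% rose at day 2 and 29.7% at day 5. Sdhb, the iron-sulphur subunit, had log2 values of 8.54, 8.53 and 8.54 in cycling myoblasts, 9.22 on each array at day 2, and 9.02, 9.02 and 8.97 at day 5. Sdhc, a membrane anchor that holds part of the heme site, had 8.26, 8.43 and 8.56 in cycling myoblasts, 9.39, 9.31 and 9.39 at day 2, and 9.32, 9.16 and 9.37 at day 5. Sdhd, the other anchor, had 9.33, 9.48 and 9.45 in cycling myoblasts, 10.31, 10.31 and 10.29 at day 2, and 9.67 on each array at day 5. Both time points lay above the cycling arrays for these genes, beside 44.2% of all tested genes at day 2 and 30.2% at day 5. The change of Sdhc at day 5 was 0.87 ± 0.0869 on the deposited values and 1.64 ± 0.0815 on the common scale. Sdha, the flavoprotein that oxidises succinate, changed by 0.57 and 0.75 at day 2 and by 0.32 and 1.00 at day 5 on the same scales.

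Among the 4 assembly factors of complex II, Sdhaf1 and Sdhaf2 rose at day 2, and Sdhaf1 alone rose at day 5. Of all tested genes 42.8% rose at day 2 and 29.7% at day 5, so these counts are near the background. Sdhaf1, which helps to insert iron-sulphur clusters into Sdhb, had 6.58, 6.64 and 6.64 in cycling myoblasts, 7.32 on each array at day 2 and 7.37 on each at day 5. Its change at day 5, 0.75 ± 0.0157 as deposited and 1.69 ± 0.00958 on the common scale, was the largest of complex II on the common scale. Sdhaf3, which also takes part in the maturation of Sdhb, had 5.35 on each cycling array, 5.31 on each at day 2, and 4.93, 4.93 and 4.95 at day 5. It was lower than in cycling myoblasts as deposited, by -0.04 at day 2 and -0.41 at day 5, and higher on the common scale, by 0.26 and 0.41. Sdhaf2, which attaches FAD to Sdha, changed by 0.19 and 0.43 at day 2 and by -0.28 and 0.65 at day 5. For Sdhaf4, a chaperone of Sdha, the cycling arrays ranged from 5.50 to 5.93 and overlapped day 2, where its change was 0.01 as deposited (limma adjusted p = 0.951) and 0.34 on the common scale (limma adjusted p = 0.00655).

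All 9 listed genes of complex III rose at day 2, 7 of them by at least 1.5-fold, and 8 rose at day 5. The matching shares of all tested genes were 42.8%, 13.3% and 29.7%. Uqcrc1 and Uqcrc2, the core proteins, behaved alike. Uqcrc1 had 10.08, 10.17 and 10.16 in cycling myoblasts, 11.05 on each array at day 2, and 10.96, 10.92 and 10.92 at day 5. Uqcrc2 had 10.04, 10.18 and 10.15 in cycling myoblasts, 10.95 on each array at day 2, and 10.78, 10.78 and 10.84 at day 5. Both genes stood above the cycling arrays at both times, as did 44.2% of all tested genes at day 2 and 30.2% at day 5.

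The redox subunits of complex III were among the largest rises. Uqcrfs1, the Rieske iron-sulphur protein, had 8.08 on each cycling array, 9.27 on each at day 2 and 8.98 on each at day 5. Cyc1, cytochrome c1, had 9.75 on each cycling array, 10.98, 10.97 and 11.06 at day 2, and 10.55 on each array at day 5. At day 2 Uqcrfs1 had a fold of 2.27 as deposited and 2.54 on the common scale, and Cyc1 had 2.38 and 2.73. At day 5 Uqcrfs1 had the largest change of complex III on the common scale, 1.72, with 0.90 as deposited. Because its 3 values were identical at each time, the deposited SE of Uqcrfs1 was 5.78e-05, which does not measure a spread between cultures.

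Uqcr10 and Uqcr11, small subunits that stabilise the complex, varied more between the cycling arrays. Uqcr10 had 7.62, 7.93 and 8.13 in cycling myoblasts, 9.26 on each array at day 2, and 8.34, 8.33 and 8.34 at day 5. Uqcr11 had 7.37, 7.44 and 7.78 in cycling myoblasts, 8.82 on each array at day 2, and 8.32, 8.25 and 8.32 at day 5. For both genes all myotube arrays stood above all cycling arrays, beside 44.2% of all tested genes at day 2 and 30.2% at day 5. Uqcr10 at day 5 stood at 0.45 ± 0.118 as deposited (limma adjusted p = 0.00916) and 1.29 ± 0.113 on the common scale (limma adjusted p = 1.08e-05). Uqcrq, another small subunit, had 8.49, 8.64 and 8.92 in cycling myoblasts, 9.51 on each array at day 2 and 9.27 on each at day 5. Uqcrh, the hinge protein that helps cytochrome c dock, had 8.84, 8.99 and 9.01 in cycling myoblasts, 9.52, 9.52 and 9.51 at day 2, and 9.05 on each array at day 5. Uqcrh was the member of complex III that did not pass at day 5, with 0.10 as deposited (limma adjusted p = 0.0565) and 0.86 on the common scale. It passed as deposited when any 1 of the 3 cycling arrays was left out, with log2 changes of 0.05 to 0.13. Uqcrb, a small subunit near the ubiquinone site, changed by 0.43 and 0.61 at day 2 and by 0.26 and 0.88 at day 5.

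Cycs, the somatic cytochrome c that shuttles electrons between complexes III and IV, rose by less than the median member. It had 10.12 on each cycling array, 10.57, 10.45 and 10.63 at day 2, and 10.25 on each array at day 5. Its change was 0.43 and 0.63 at day 2 and 0.13 and 0.83 at day 5. The other probe sets of Cycs gave -0.05 and -0.03 as deposited at day 5, and the mean of its 3 probe sets gave 0.01 (limma adjusted p = 0.678). With any 1 cycling or day-5 array left out, the deposited call at day 5 was lost as well (limma adjusted p of 0.0624 to 0.0627).

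The promoters of Uqcr11 and Cycs are shown because both hold the letters of NRF1, a factor identified on the rat cytochrome c promoter. Each stretch runs from 170 bases before the annotated transcript start to 30 bases after it, 5′ to 3′ along the gene, from RefSeq on build GRCm38.p6. Uqcr11 lies at chr10:80406792-80406991 and Cycs at chr6:50566540-50566739, both on the minus strand. Capitals mark CCGGAAG, the GABPA/ETS letters, 66 bases before the start of Uqcr11, and the NRF1 letters read on the other strand 4 bases before the start of Uqcr11 and 60 bases before that of Cycs.
Uqcr11: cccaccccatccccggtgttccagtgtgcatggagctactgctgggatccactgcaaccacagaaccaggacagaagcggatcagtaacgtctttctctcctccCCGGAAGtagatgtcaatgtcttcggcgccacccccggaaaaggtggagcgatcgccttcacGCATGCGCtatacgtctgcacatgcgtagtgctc
Cycs: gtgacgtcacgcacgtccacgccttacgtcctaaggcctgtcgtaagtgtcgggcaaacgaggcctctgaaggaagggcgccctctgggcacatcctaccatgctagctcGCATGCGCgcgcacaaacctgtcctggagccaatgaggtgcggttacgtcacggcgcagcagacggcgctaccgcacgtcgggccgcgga

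In complex IV, 5 of the 6 tested subunits rose at both times and Cox6b2 fell. Among all tested genes 42.8% rose and 37.4% fell at day 2, and 29.7% rose and 38.1% fell at day 5. Cox5a, a matrix-side subunit, had 9.32, 9.32 and 9.39 in cycling myoblasts, 9.97 on each array at day 2, and 9.72, 9.66 and 9.60 at day 5. Cox5b, which binds zinc, had 10.34 on each cycling array, 11.19 on each at day 2, and 11.02, 11.02 and 10.98 at day 5. Cox7b, a membrane subunit, had 9.25, 9.50 and 9.75 in cycling myoblasts, 10.28, 10.28 and 10.31 at day 2, and 9.99, 10.00 and 10.00 at day 5. For these 3 genes all myotube arrays stood above the cycling arrays, beside 44.2% of all tested genes at day 2 and 30.2% at day 5. Cox5b had the largest change of these subunits as deposited, 0.84 ± 0.0117 at day 2 and 0.67 ± 0.0117 at day 5. Cox6c, a small membrane subunit, changed by 0.34 and 0.50 at day 2 and by 0.58 and 1.11 at day 5. Cox7b2, a paralog of Cox7b, had 2.39 on each cycling array, 2.30 on each at day 2 and 2.13 on each at day 5, below the filter on all 9 arrays, and was not tested.

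The pair of genes for subunit 6b moved apart. Cox6b1, the broadly used form, had 8.88, 8.96 and 8.98 in cycling myoblasts, 9.55, 9.56 and 9.53 at day 2, and 9.20, 9.12 and 9.21 at day 5. Cox6b2, a form known from testis, had 7.22, 7.28 and 7.42 in cycling myoblasts, 4.59, 4.59 and 4.66 at day 2, and 4.22 on each array at day 5. All myotube arrays of Cox6b1 stood above the cycling arrays, and all those of Cox6b2 stood far below them. Cox6b2 fell by 2.70 ± 0.051 as deposited at day 2 (limma adjusted p = 2.67e-09) and by 2.34 ± 0.0473 on the common scale (limma adjusted p = 9.95e-10). At day 5 it fell by 3.08 ± 0.051 and by 2.39 ± 0.0473. At day 2 Cox6b2 stood at 0.154 of its cycling level as deposited and 0.197 on the common scale, and it was the sole member to fall by 1.5-fold or more, against 15.4% of all genes at 1.5-fold and 8.41% at 2-fold. Its day-5 value lay just above the array median of 3.98 to 4.00, and the files hold no detection call for it. The change of Cox6b1 was 0.61 and 0.74 at day 2 and 0.24 and 0.99 at day 5.

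The promoters of the pair, at chr7:30626085-30626284 for Cox6b1 and chr7:4753065-4753264 for Cox6b2, both on the minus strand of GRCm38.p6 and from RefSeq, are shown because the genes moved in opposite directions. In Cox6b1 the capitals mark the GABPA/ETS letters read on the other strand, 28 bases before the start. No searched motif was found in the Cox6b2 window.
Cox6b1: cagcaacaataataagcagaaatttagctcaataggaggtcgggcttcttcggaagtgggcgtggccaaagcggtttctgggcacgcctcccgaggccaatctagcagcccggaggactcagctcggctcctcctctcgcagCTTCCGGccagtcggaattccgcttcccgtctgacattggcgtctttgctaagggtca
Cox6b2: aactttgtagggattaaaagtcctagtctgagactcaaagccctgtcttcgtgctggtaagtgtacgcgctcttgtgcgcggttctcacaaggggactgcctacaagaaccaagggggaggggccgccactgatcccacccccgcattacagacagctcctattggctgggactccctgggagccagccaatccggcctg

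Of the 8 assembly factors of complex IV, 7 rose and 1 fell at day 2, and 4 rose at day 5. Of all tested genes 42.8% rose and 37.4% fell at day 2, and 29.7% rose at day 5. Cox14, which acts early in the assembly of the mitochondrially encoded subunit Cox1, had 8.18 on each cycling array, 9.24, 9.24 and 9.23 at day 2, and 9.14, 9.13 and 9.12 at day 5. Its change at day 5, 0.95 ± 0.00402 as deposited and 1.75 ± 0.0111 on the common scale, was the largest rise of all 49 tested members on both scales. Cox17, a copper chaperone, had 7.14, 7.24 and 7.29 in cycling myoblasts, 7.82 on each array at day 2 and 7.32 on each at day 5. Cox19, which takes part in copper handling, had 6.26 on each cycling array, 7.37 on each at day 2, and 6.63, 6.58 and 6.58 at day 5. Cox17 and Cox19 thus stood higher at day 2 than at day 5 as deposited, and on the common scale their changes were 0.83 and 1.35 at day 2 and 1.02 and 1.31 at day 5. The deposited change of Cox17 at day 5 was 0.09 (limma adjusted p = 0.0405), and its call was lost without cycling replicate 2 or without any 1 myotube array (0.0613 to 0.0864) and with replicate number as a block (0.056).

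Cox10 and Cox15 act in turn to make heme A, the heme of cytochrome c oxidase. Cox15, the heme A synthase, had 7.16 on each cycling array, 7.79, 7.78 and 7.78 at day 2, and 6.67 on each array at day 5. It was above the cycling arrays at day 2 and below them at day 5 as deposited, by 0.62 and -0.50, and above them by 0.87 and 0.48 on the common scale. Cox10, the heme O synthase, changed by 0.53 and 0.80 at day 2 and by -0.12 and 0.86 at day 5. Cox11, which delivers copper to Cox1, changed by 0.24 and 0.51 at day 2 and by -0.12 and 0.86 at day 5, and without any 1 day-5 array its deposited call was lost (limma adjusted p of 0.0659 to 0.066). Cox20, a chaperone of Cox2, changed by 0.58 and 0.83 at day 2 and by 0.35 and 1.29 at day 5. Cox18, which inserts Cox2 into the membrane, fell at day 2 by 0.30 as deposited and by 0.16 on the common scale. When arrays were instead shifted to equal 75th percentiles, the change of Cox18 was -0.0024, which did not pass the test. At day 5 Cox18 stood at -0.56 as deposited and 0.26 on the common scale.

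All 17 listed genes of ATP synthase rose at day 2, 13 of them by at least 1.5-fold, and 16 rose at day 5. The matching shares of all tested genes were 42.8%, 13.3% and 29.7%. Atp5b, the catalytic beta subunit of the F1 head, had 11.99, 12.01 and 12.01 in cycling myoblasts, 12.22 on each array at day 2, and 12.10, 12.07 and 12.07 at day 5. Its change, 0.22 on both scales at day 2 and 0.08 and 0.32 at day 5, was small among the 17. Atp5c1, the gamma subunit that forms the rotating shaft, had 11.01, 11.00 and 11.05 in cycling myoblasts, 11.69 on each array at day 2, and 11.40, 11.40 and 11.39 at day 5. Atp5d, the delta subunit of the central stalk, had 10.44, 10.56 and 10.58 in cycling myoblasts, 11.47, 11.47 and 11.46 at day 2, and 11.24, 11.19 and 11.18 at day 5. Atp5e, the epsilon subunit beside it, had 7.76, 7.78 and 8.26 in cycling myoblasts, 8.90 on each array at day 2, and 8.67, 8.64 and 8.67 at day 5. In each of these F1 genes both sets of myotube arrays stood above the cycling arrays, beside 44.2% of all tested genes at day 2 and 30.2% at day 5. At day 2 Atp5d changed by 0.94 and 1.11 and Atp5e by 0.97 and 1.13, whereas Atp5c1 changed by 0.68 and 0.78 and Atp5a1, the alpha subunit of the head, by 0.58 and 0.66.

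The peripheral stalk keeps the F1 head from turning with the rotor, and its 4 genes rose at both times. Among all tested genes 42.8% rose at day 2 and 29.7% at day 5. Atp5pb, subunit b, had 10.11 on each cycling array, 10.87, 10.82 and 10.87 at day 2, and 10.64 on each array at day 5. Atp5j, known as coupling factor 6, had 10.51, 10.55 and 10.58 in cycling myoblasts, 11.15, 11.19 and 11.14 at day 2, and 11.03, 11.03 and 11.04 at day 5. Atp5o, the oligomycin sensitivity protein that joins the stalk to the head, had 9.41, 9.41 and 9.43 in cycling myoblasts, 10.41 on each array at day 2 and 10.02 on each at day 5. All myotube arrays of these genes lay above the cycling arrays, beside 44.2% of all tested genes at day 2 and 30.2% at day 5. Atp5o changed most, by 0.99 and 1.15 at day 2 and by 0.61 and 1.30 at day 5. Atp5h, subunit d, changed by 0.53 and 0.74 at day 2 and by 0.53 and 1.17 at day 5.

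The supernumerary subunits of the membrane part, which help ATP synthase to form dimers, all rose by at least 1.5-fold at day 2. The share of all tested genes was 13.3%. Atp5k, subunit e, had 7.67, 7.96 and 7.98 in cycling myoblasts, 9.10, 9.11 and 9.10 at day 2, and 8.69, 8.63 and 8.63 at day 5. Atp5l, subunit g, had 8.27, 8.47 and 8.66 in cycling myoblasts, 9.39, 9.39 and 9.54 at day 2, and 8.86, 8.86 and 8.85 at day 5. Atp5j2, subunit f, had 9.47, 9.80 and 10.06 in cycling myoblasts, 10.62 on each array at day 2, and 10.50, 10.51 and 10.51 at day 5. Atp5j2 had the largest SD between cycling arrays of the 50 genes, 0.294, and its myotube arrays still lay above all of them, as did those of Atp5k and Atp5l. Among all tested genes 44.2% did so at day 2 and 30.2% at day 5. Atp5md, the gene of the small protein DAPIT, had 10.39, 10.26 and 10.70 in cycling myoblasts, 11.26, 11.17 and 11.36 at day 2, and 10.90, 10.84 and 10.78 at day 5. Atp5mpl, a small proteolipid, had 10.34, 10.30 and 10.39 in cycling myoblasts, 10.94 on each array at day 2, and 10.85, 10.76 and 10.68 at day 5. Atp5k had the largest change of the group, 1.24 ± 0.0816 as deposited and 1.40 ± 0.0748 on the common scale at day 2. The median of the group was 0.85 and 1.04 at day 2, against 0.68 and 0.78 for the 5 F1 genes, and this difference was not tested.

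The c ring is made of identical c subunits that 3 genes encode, with the same mature protein and different import sequences. Atp5g1 had 8.47, 8.57 and 8.50 in cycling myoblasts, 9.60 on each array at day 2, and 9.37, 9.37 and 9.35 at day 5. Atp5g2 had 10.10, 10.24 and 10.27 in cycling myoblasts, 10.43 on each array at day 2, and 9.90, 9.83 and 9.89 at day 5. Atp5g3 had 10.95, 10.96 and 10.96 in cycling myoblasts, 11.75, 11.75 and 11.61 at day 2, and 11.52, 11.40 and 11.40 at day 5. Atp5g1 and Atp5g3 were above the cycling arrays at both times, and Atp5g2 was above them at day 2 and below them at day 5 as deposited. Atp5g1 rose by 1.09 ± 0.0258 as deposited and 1.24 ± 0.0232 on the common scale at day 2, and by 0.85 and 1.62 at day 5. Atp5g3 rose by 0.74 ± 0.0498 and 0.88 ± 0.0506 at day 2, and by 0.48 and 0.97 at day 5. Atp5g2 rose by 0.22 ± 0.0463 and 0.42 ± 0.0263 at day 2, and at day 5 stood at -0.33 on the deposited values and 0.40 on the common scale.

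The difference between 2 genes on the same array does not depend on a shift shared by all genes of that array. The log2 difference of Atp5g1 minus Atp5g2 as deposited averaged -1.69 ± 0.0716 for cycling arrays, -0.83 for day-2 arrays, with the same value on all 3, and -0.51 ± 0.0413 for day-5 arrays (SD, n = 3 arrays). On the common scale it was -1.68, -0.85 and -0.46. Atp5g3 minus Atp5g2 was 0.75 ± 0.0838, 1.27 ± 0.082 and 1.57 ± 0.0542 as deposited at the same times, and 0.83, 1.29 and 1.40 on the common scale. Both differences thus moved the same way on both scales, and no range of one time point overlapped another. Since the genes have different probe sets, only the movement of these differences is comparable, not their size at a given time.

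**Figure D4:**
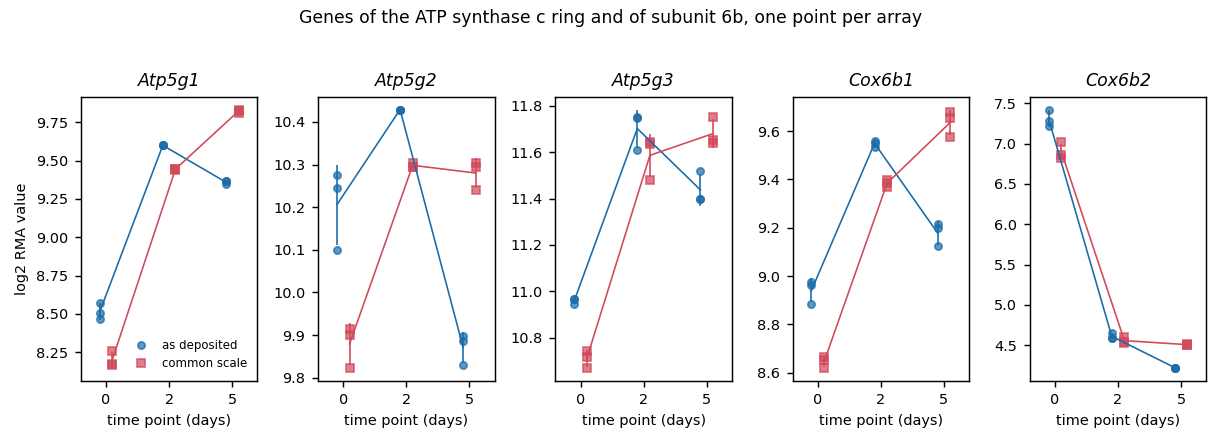
Log2 RMA values of the c-ring genes Atp5g1, Atp5g2 and Atp5g3 and of the subunit 6b genes Cox6b1 and Cox6b2 at 0, 2 and 5 days. Points are the 3 arrays, lines join the means with SD bars, circles are as deposited, squares are on the common scale, and each panel has its own axis range. As deposited, Cox6b2 lies at 4.22 to 4.66 in myotubes, against 7.22 to 7.42 in cycling myoblasts, and on the common scale at 4.50 to 4.61, against 6.83 to 7.01, while the other genes are higher at day 2, and Atp5g2 is the gene whose day-5 value lies below cycling on one scale and above it on the other.

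The promoters of the c-ring genes are shown because genes of the same mature protein moved by different amounts. They lie at chr11:96075602-96075801 for Atp5g1, chr15:102671018-102671217 for Atp5g2 and chr2:73911297-73911496 for Atp5g3, all on the minus strand of GRCm38.p6 and from RefSeq. In Atp5g2 the capitals mark the NRF1 letters, which match on both strands in overlapping positions 42 and 40 bases before the start. In Atp5g3 they mark TCAAGGTCA, the letters of the estrogen-related receptors (ERR), read on the other strand 52 bases before the start. None of the searched motifs was found in the Atp5g1 window.
Atp5g1: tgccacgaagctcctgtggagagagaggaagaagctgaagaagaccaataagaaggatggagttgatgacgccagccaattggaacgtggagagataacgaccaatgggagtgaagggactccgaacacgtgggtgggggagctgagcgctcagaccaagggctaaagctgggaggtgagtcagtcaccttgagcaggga
Atp5g2: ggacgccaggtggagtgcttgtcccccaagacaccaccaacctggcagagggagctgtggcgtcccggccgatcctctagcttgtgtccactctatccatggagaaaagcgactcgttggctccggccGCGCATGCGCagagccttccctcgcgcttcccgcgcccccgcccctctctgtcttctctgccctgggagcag
Atp5g3: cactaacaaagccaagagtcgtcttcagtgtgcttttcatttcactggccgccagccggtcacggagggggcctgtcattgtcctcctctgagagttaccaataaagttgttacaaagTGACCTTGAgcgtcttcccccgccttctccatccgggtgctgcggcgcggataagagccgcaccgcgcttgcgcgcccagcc

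RefSeq promoters, from 250 bases before to 50 after the start, were found for 40 of the 50 genes and for 27025 genes in all. The 27025 genes were not limited to those tested on the array and were not matched to the members in expression level or base composition. The shares below therefore do not tell whether a motif is particular to respiratory genes. All promoters were searched on both strands for exact letters of factors known to act on respiratory genes. CCGGAAG, the letters of GABPA and other ETS factors, was found in 18 of the 40 genes, or 45.0%, and in 9.93% of all genes. GCGCATGC, the letters of NRF1, was found in 7, or 17.5%, and in 3.05% of all genes. AAGATGGCG, the letters of YY1, was found in 3, or 7.5%, and in 1.64% of all genes. TCAAGGTCA was found in 2, Atp5g3 and Sdhd, or 5.0%, and in 0.466% of all genes. Its core AAGGTCA, which every TCAAGGTCA contains, was found in 5, or 12.5%, and in 5.38% of all genes. At least 1 of the motifs was present in 23 of the 40 genes and none in 17. The genes with CCGGAAG had a median change of 0.65 as deposited and 0.85 on the common scale at day 2 (18 genes), against 0.75 and 0.95 in the tested genes without it (21 genes). For GCGCATGC the medians were 0.91 and 1.11 with it (7 genes) and 0.69 and 0.87 without it (32 genes). A match is a description of the letters and shows no binding, and these differences were not tested.

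**Figure D5:**
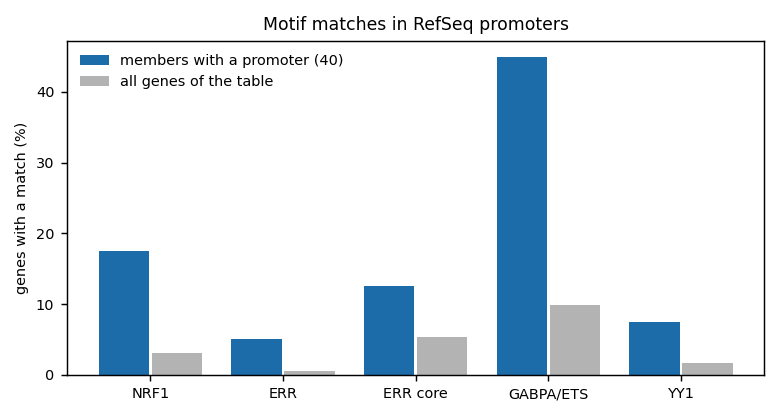
Share of genes, in percent, whose RefSeq promoter holds each motif on either strand, for the 40 respiratory genes with a promoter (blue) and all 27025 genes (grey). The tallest blue bar is GABPA/ETS at 45.0%, beside 9.93% of all genes.

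Structural subunits and assembly factors differed in their counts. Of 36 tested subunits, 35 rose at day 2 and 33 at day 5, beside 42.8% and 29.7% of all tested genes. Of 12 assembly factors 9 rose at day 2 and 5 at day 5, and this day-5 count is not far from the share of all genes. The median change of the subunits was 0.80 and 0.95 at day 2 and 0.49 and 1.18 at day 5. That of the assembly factors was 0.55 and 0.81 at day 2 and -0.01 and 0.94 at day 5. The difference between the classes was not tested.

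Further assembly factors known by other names were counted from a separate list. Of 20 that were tested, 16 rose and 0 fell at day 2, and 6 rose and 0 fell at day 5 by limma on both scales. Of all tested genes 42.8% rose and 37.4% fell at day 2, and 29.7% rose and 38.1% fell at day 5, so the count of rises at day 5 was at the background. The largest was Uqcc1, which promotes complex III assembly, with 1.59 and 1.82 at day 2 and 1.37 and 2.28 at day 5. Of 13 genes of electron entry through ETF and coenzyme Q, 12 rose at day 2 and 8 at day 5, beside the same 42.8% and 29.7% of all genes. Coq10a, a coenzyme Q binding protein, changed by 1.55 and 1.79 at day 2 and by 2.21 and 3.11 at day 5. Of 7 carriers, porins and the ATP synthase inhibitor, 6 rose at day 2, beside 42.8%, and Atpif1, the inhibitor, fell by 0.99 and 0.86. At day 5 Atpif1 stood at -0.80 as deposited (limma adjusted p = 3.12e-08) and -0.08 on the common scale (limma adjusted p = 0.0756).

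Among 14 regulators of mitochondrial biogenesis, 7 rose and 6 fell at day 2, and 4 rose and 5 fell at day 5. These counts lie near the shares of all genes, 42.8% higher and 37.4% lower at day 2 and 29.7% and 38.1% at day 5. The estrogen-related receptor genes Esrrb and Esrrg rose by 1.37 and 1.49 and by 1.74 and 1.77 at day 2, Esrra by 0.53 and 0.78, and the coactivator gene Ppargc1a by 0.78 and 1.01. Nrf1 fell by 0.50 and 0.18 at day 2 and by 1.74 and 0.86 at day 5. Gabpa fell by 0.52 and 0.36 at day 2 and by 1.77 and 0.88 at day 5. Nrf1 and Gabpa are given because they name the most frequent motifs, and other ETS factors share the CCGGAAG letters. Activity of these factors was not measured, and a link between the regulators and the members was not tested.

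For the neighbouring complex I, 36 genes were taken by symbol, of which 34 rose at day 2 and 30 at day 5, against 42.8% and 29.7% of all genes. Their medians were 0.70 and 0.84 at day 2 and 0.62 and 1.38 at day 5. The symbols also take in Ndufa4 and Ndufa4l2, so the 36 are a list by name rather than by proven place in complex I. Ndufa4 rose at neither time. At day 5, 7 of the 36 rose at least 2-fold on both scales, against 4.44% of all genes. The cytochrome c oxidase genes that the choice by symbol left out include the muscle forms Cox6a2, Cox7a1 and Cox8b. Their changes at day 2, 3.84 and 4.11 for Cox6a2, 3.22 and 3.39 for Cox7a1, and 4.15 and 4.44 for Cox8b, were larger than that of any of the 49 genes tested here. Cox6a1 and Cox8a, also left out, rose little at day 2, by 0.11 and 0.21 and by 0.15 and 0.34. At day 5 Cox6a1 stood at -1.02 and -0.25 and Cox8a at -1.15 and -0.36. Of the 10 genes left out, 6 had a change above 0 at day 5 as deposited and 8 on the common scale.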

How the data were processed

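RNA of 9 arrays, 3 per time point, was analysed. Per the submitters' processing notes, the authors made the deposited log2 expression values with RMA, which per the series' design text was done by replicate set. The sources used here do not give its version. All 35556 probe sets were read. The platform annotation named 1 gene for 21789, several genes for 1621 and none for 12146 of them. Among probe sets with exactly 1 gene, that of highest mean represented the gene, for 19938 genes. Genes above the 30th percentile of their array on at least 3 arrays were tested, 16582 in all. Tests used limma 3.58.1 in R 4.3.3 (lmFit, contrasts.fit, eBayes; two-sided) with 1 mean per time point and Benjamini-Hochberg adjustment over all tested genes at 0.05, on the deposited values and after quantile normalization over all 9 arrays. The procedure was tested on simulated data with independent noise on a shared scale. That simulation had neither the identical replicate values nor the separate RMA runs of the real arrays, so it does not bear on these. The number of arrays limits the precision.

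All members are accounted for. Values on each array are given for members that changed at least 1.5-fold on both scales against cycling myoblasts, for the members with the largest and the smallest change of each complex at day 5 on the common scale, and for the genes of the c ring, subunit 6b and subunit 7b. The members and the gene lists were chosen with earlier results of these data known. Deviations of arrays with the same replicate number correlated at -0.038 to 0.106 over 9 pairs, and those with different numbers at -0.151 to 0.163. Many values are identical on all arrays of a time point, so this comparison cannot decide whether replicate numbers pair the arrays. The alternatives were another scaling, other filters, the mean of all probe sets, eBayes with trend, a replicate block and leaving out each array. Promoter and gene names came from RefSeq tables of GRCm38.p6.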

Additional observations from a re-analysis of the deposited data

How the results depend on the processing

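The scale was the choice that moved the results most. On the common scale the members' median was 0.87 at day 2 and 1.13 at day 5, and with the 75th percentiles of the arrays set equal it was 0.99 and 1.38, against 0.69 and 0.42 as deposited. The median at day 5 against day 2 reversed, to 0.24 and 0.40, against -0.27 as deposited. In that comparison 37 members were higher and 2 lower on the common scale and 41 and 3 with equal 75th percentiles, against 2 and 40 as deposited. At day 5 against cycling myoblasts 1 member was lower under either scaling, against 8 as deposited, and at day 2 it was 1 with equal 75th percentiles, against 3. Reversed genes on the common scale and with equal 75th percentiles were Sdhaf3 at day 2 (0.26 and 0.26) and, at day 5, Sdhaf2 (0.65 and 0.69), Sdhaf3 (0.41 and 0.55), Cox10 (0.86 and 0.84), Cox11 (0.86 and 0.84), Cox15 (0.48 and 0.47), Cox18 (0.26 and 0.41) and Atp5g2 (0.40 and 0.63). With 1 array left out at a time, day 2 had 45 members higher and 3 lower with a median of 0.67 to 0.69. Day 5 had 37 to 40 higher and 7 to 8 lower (median 0.38 to 0.48), and day 5 against day 2 had 1 to 3 higher and 39 to 43 lower (median -0.29 to -0.26). Of 102 results of single genes, 95 kept direction and call in all of these fits. Sdhaf4 at day 2 ranged from -0.0957 to 0.1212 and turned to -0.0957 and -0.0056 without cycling replicate 1 or 2. With the replicate block, 101 of the 102 were unchanged; the exception was Cox17 at day 5 (0.09, limma adjusted p = 0.056), and no count or median changed its call. Other filters and eBayes with trend changed none of the 102, and the mean of all probe sets ended 1, Cycs at day 5. Signal over background could not be judged for Cox6b2 and Cox7b2 in myotubes, because the files hold no detection call. The cause of these shifts was not tested.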

Other observations

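A pair of complex IV genes is measured only by probe sets that the annotation gives to 2 genes at once, and these were left out of every count. The 3 probe sets shared by Cox7c, a small subunit of cytochrome c oxidase, and the predicted gene Gm12338 averaged 10.20, 10.42 and 10.21 on the cycling arrays, 10.50, 10.74 and 10.59 after 2 days, and 10.21, 10.53 and 10.34 after 5 days, as deposited. The probe set shared by Cox16, an assembly factor, and Gm20498 averaged 6.01 for cycling arrays, 5.997 for day-2 arrays and 5.40 for day-5 arrays.

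Of the 50 genes, 13 had more than 1 probe set of their own, up to 6 for Atp5l. All probe sets of a gene gave the same sign at day 2 on the common scale. The widest disagreement was in Sdhaf4, whose probe sets changed by 1.13 and 0.15 at day 5 on the common scale.

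Among the cycling arrays, replicate 1 alone was lowest for 28 of the 50 genes and replicate 3 alone was highest for 27. The median of the members was 8.88, 8.99 and 9.01 on cycling replicates 1 to 3, whereas it was 9.60 on each day-2 array.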
